A study of Danio rerio with 6 samples.

Results

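The genes described here encode the synaptic vesicle and release machinery, with which a neuron fills vesicles with transmitter, fuses them with the plasma membrane and takes the membrane back. Fusion is driven by SNARE proteins, which sit on the vesicle (synaptobrevin, also called VAMP) and on the plasma membrane (syntaxin and SNAP-25) and zip together. Munc18 and complexins control this zipping, synaptotagmins make it depend on calcium, and NSF with its SNAP adaptors takes spent complexes apart. Vesicular transporters set which transmitter a vesicle holds, active zone scaffolds hold vesicles at the release site, and dynamin with amphiphysin retrieves the membrane. Many of these genes are present in the zebrafish as a pair of copies, whose symbols end in a and b.

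A gene was included when its symbol in the deposited table was one of 39 listed symbols of this machinery. Of these symbols, 37 were found. The symbol *cplx2* stood on 2 rows, which gives 38 genes out of 32520, and the symbols *bsna* and *syn3* matched no row and were not analysed here. All 38 had a mean RPKM (reads per kilobase of gene, relative to library size) of at least 0.5 over the libraries, and they were among the 20435 genes tested. The 38 genes lay on 22 chromosomes, with at most 3 on any one of them.

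RNA came from whole larvae at 4 days post fertilization (dpf), in 3 pools of 60 homozygous maggot (*mgt*) mutants and 3 pools of 60 wild-type (WT) larvae of the AB strain, and the labels give no treatment. The *mgt* line carries a chemically induced missense allele of *plod3*, which encodes the collagen-modifying enzyme lysyl hydroxylase 3. The labels call it a *plod3* knockout, it is a single allele, and the mutants die as larvae. The labels put every *mgt* pool in batch 2 and every WT pool in batch 1, so batch and genotype cannot be told apart.

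The libraries held 38.35 to 42.56 (in units of 1e6 reads) in *mgt* and 43.4 to 50.27 in WT, so that 1 RPKM stood for 38.4 to 50.3 reads per kilobase of gene. The RPKM of *plod3* (ENSDARG00000076317, chromosome 23, 44843860 to 44879214, GRCz11) was 24.2 ± 0.24 in *mgt* and 15.4 ± 1.28 in WT (SD, n = 3 pools each). These values cannot check the missense allele, which the paper reports. WT replicate 1 stood apart from the other WT libraries, and the authors' deposited WT mean leaves it out, matching the mean of the other 2 WT libraries in 32520 of 32520 genes. The difference between libraries, as the median absolute log2 difference over all genes tested, was 0.38 to 0.39 between WT replicate 1 and the other WT libraries, 0.17 between WT replicates 2 and 3, and 0.07 to 0.08 among the *mgt* libraries. The values of genes are therefore given for every WT library on its own, and the counts of calls also without WT replicate 1. WT libraries 1, 2 and 3 are WT replicates 1, 2 and 3, and values of a group stand in that order throughout. The label of WT replicate 3 gives a library name and a data column that differ in number, and the column was followed. A legend in the paper names the pools technical replicates and the labels name them biological ones, so p-values measure the spread between these pools.

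Transcripts of the release machinery were more abundant in *mgt* than in WT replicates 2 and 3 and were close to those of WT replicate 1. The summed RPKM of the 38 genes was 1511, 1538 and 1590.3 in *mgt* replicates 1, 2 and 3, against 1322 in WT replicate 1, 369.9 in WT replicate 2 and 458 in WT replicate 3. All *mgt* sums exceeded all WT sums, and WT replicate 1 lay far nearer to *mgt* than to the other WT libraries. RPKM is relative to library size, so these values are shares of the RNA of a library and not amounts per larva. In whole larvae, more neurons, more RNA per neuron and less RNA from other tissues cannot be told apart.

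With all 6 libraries, 19 of the 38 genes (50.0%) were called higher in *mgt*, 1 was called lower and 18 were not called. A gene was called at an adjusted p below 0.05 (limma on log2(RPKM + 0.5), Benjamini-Hochberg over all genes tested) and a fold change of at least 1.25. Of all 20435 genes tested, 31.8% were called higher and 15.6% lower. The median log2 fold change was 1.35 over the 38 genes, a 2.56-fold difference, and 0.29 over all genes tested. The log2 fold change was at least 1 in 30 of the 38 genes (78.9%) and in 15.8% of all genes tested.

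Without WT replicate 1, 36 of the 38 genes were called higher (limma with Benjamini-Hochberg adjustment, adjusted p from 8.2e-07 to 0.001), *stx1a* was called lower and *syt1b* was not called. The shares over all genes were then 52.2% called higher and 18.1% called lower. The 19 genes called higher with all libraries had log2 fold changes of 0.78 to 2.40 there and of 1.07 to 3.05 without this library. The median log2 fold change over the 38 genes was 2.02 without it, a 4.06-fold difference, against 0.39 over all genes. The count of 19 fell when any other library was left out. It was 1 without *mgt* replicate 1, 1 without *mgt* replicate 2, 0 without *mgt* replicate 3, 3 without WT replicate 2 and 0 without WT replicate 3. In the same order, the shares of all genes called higher were 11.9%, 11.5%, 11.5%, 17.6% and 16.1%. In the fits with a count of 0, 18 and 13 of the genes were higher at an unadjusted p below 0.05, while the median stayed between 1.02 and 1.37 in all 5 fits.

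Set against each WT library, the *mgt* mean of the 38 genes differed by a median log2 value of 0.21 from WT replicate 1, 2.12 from WT replicate 2 and 1.88 from WT replicate 3. Over all genes tested the same medians were 0.04, 0.36 and 0.40. All *mgt* values exceeded all WT values in 22 of the 38 genes and fell short of all of them in 1, where 41.7% and 21.6% of all genes tested did the same. Against WT replicate 1 alone, 22 genes were above it in every *mgt* library, 11 were below it in every one and 5 straddled it, beside 46.4% above and 40.0% below over all genes tested. Against WT replicates 2 and 3, 36 genes were above both in every *mgt* library, beside 60.0% of all genes tested. WT replicate 1 itself was above both other WT libraries in 36 of the 38 genes, beside 63.7% of all genes tested, by a median log2 difference of 1.80 (0.28 over all genes tested). The median absolute log2 difference over the 38 genes was 0.05 to 0.06 among *mgt* libraries, 0.35 to 0.40 between *mgt* libraries and WT replicate 1, 1.83 to 2.14 between *mgt* libraries and WT replicates 2 and 3, and 0.37 between WT replicates 2 and 3. Between WT replicate 1 and the other WT libraries it was 1.60 to 1.99. Over all genes tested, WT replicate 1 was also nearer to *mgt* (0.32) than to the other WT libraries (0.38 to 0.39). The *mgt* libraries differed there from WT replicates 2 and 3 by 0.62 to 0.63.

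**Figure D1:**
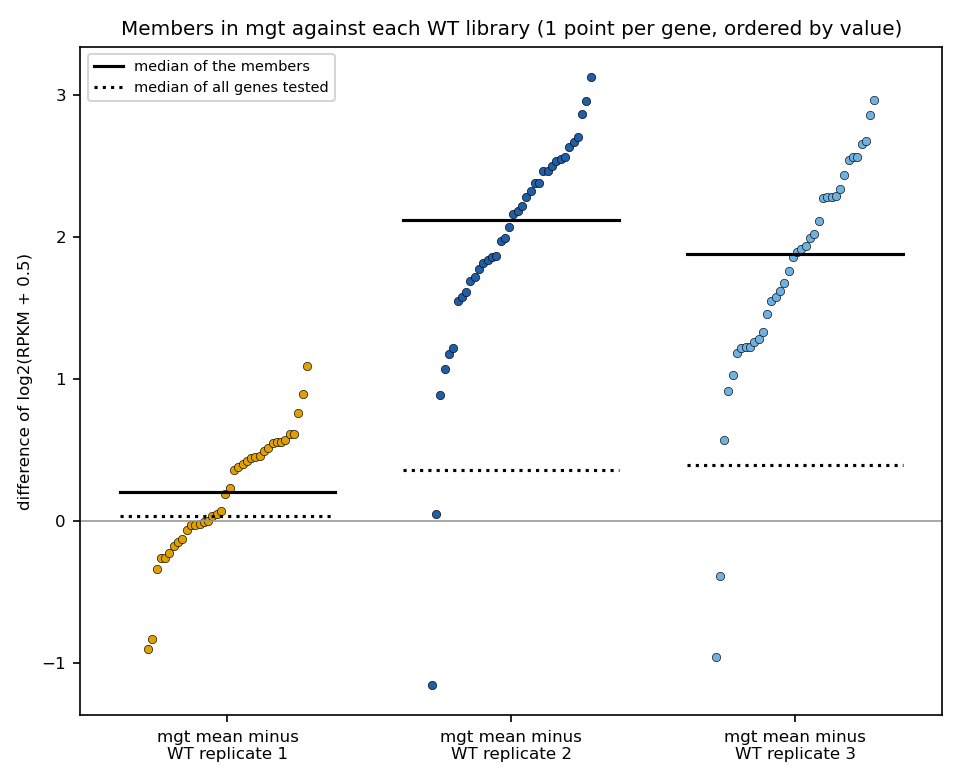
Difference of log2(RPKM + 0.5) between the *mgt* mean and each WT library (y axis) for the 38 genes, 1 point per gene in order of value, with the median of the 38 genes (solid line) and of all genes tested (dotted line). The median is 0.21 against WT replicate 1, 2.12 against WT replicate 2 and 1.88 against WT replicate 3, and the points against WT replicate 1 lie on both sides of 0.

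Of the 5 genes for SNARE proteins, which form the fusion complex, *vamp2* was called higher, *stx1a* was called lower, and *snap25a*, *snap25b* and *vamp1* were not called. The gene *vamp2* (ENSDARG00000056877, chromosome 10, 22838364 to 22845485 of GRCz11) encodes the vesicle SNARE synaptobrevin 2. Its RPKM was 86.8, 91.5 and 94.3 in *mgt* replicates 1, 2 and 3, against 42.2 in WT replicate 1, 9.95 in WT replicate 2 and 11.2 in WT replicate 3. This gene had the highest log2 fold change of the 38 genes, 2.40 (SE 0.52, limma adjusted p = 0.013 with Benjamini-Hochberg adjustment), and 3.05 without WT replicate 1. It was also the one gene of the 38 whose *mgt* mean exceeded WT replicate 1 by a log2 value of more than 1 (1.1).

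The gene *stx1a* (ENSDARG00000058994, chromosome 15, 1734444 to 1746963), which encodes the plasma membrane SNARE syntaxin 1A, went the other way at a low level. Its RPKM was 0.65, 0.58 and 0.52 in *mgt*, against 1.42, 1.90 and 1.60 in the WT libraries 1, 2 and 3, with every *mgt* library below every WT library. The log2 fold change was -0.98 (SE 0.13, limma adjusted p = 0.0029) with all libraries and -1.05 without WT replicate 1, and *stx1a* was the one gene of the 38 in which WT replicate 1 lay below both other WT libraries. The *snap25* copies and *vamp1*, a second synaptobrevin gene, separated WT replicates 2 and 3 from the other 4 libraries. For *snap25b* the RPKM was 90.2, 91.5 and 94.6 in *mgt*, against 102, 25.4 and 26.8 in WT, so that WT replicate 1 lay above every *mgt* library. For *snap25a* it was 115, 123 and 123 in *mgt*, against 122, 56.9 and 80.8 in WT. For *vamp1* it was 35, 34 and 36.5 in *mgt*, against 35.1, 11.6 and 11.4 in WT. Their log2 fold changes of 0.54 to 1.15 had adjusted p-values of 0.075 to 0.12 from limma with all libraries and of at most 0.001 without WT replicate 1.

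**Figure D2:**
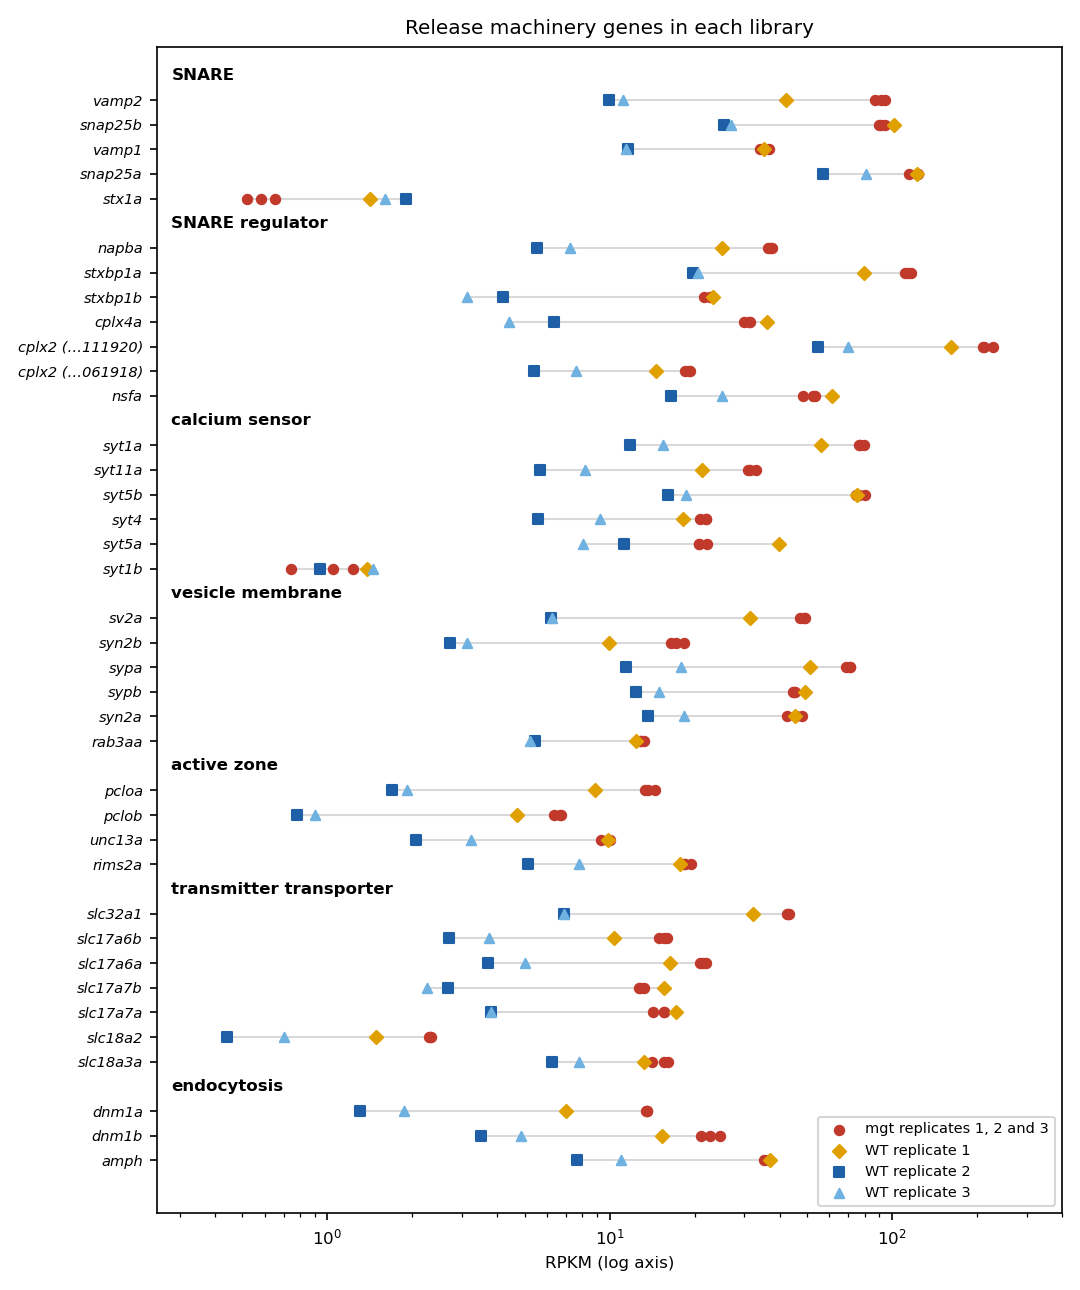
RPKM (x axis, log scale) of the 38 genes in each library, grouped by role and labelled by gene on the y axis, with *mgt* replicates as circles and each WT replicate with a symbol of its own. In 36 genes all *mgt* circles lie right of WT replicates 2 and 3, whereas WT replicate 1 lies beside or beyond the circles in many of them, and *stx1a* alone has all circles left of every WT symbol.

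Of the 7 genes whose products regulate the SNARE complex, *stxbp1a*, *napba* and both *cplx2* genes were called higher, and *stxbp1b*, *cplx4a* and *nsfa* were not called (log2 fold change 0.80 to 1.63, limma adjusted p from 0.083 to 0.16). Munc18-1, which binds syntaxin and is needed for fusion, is encoded by *stxbp1a*, whose RPKM was 114, 111 and 116 in *mgt*, against 79.5, 19.7 and 20.6 in the WT libraries 1, 2 and 3 (log2 fold change 1.82, SE 0.52, limma adjusted p = 0.029). Its copy *stxbp1b* had 22.6, 21.5 and 22.9 in *mgt*, against 23.3, 4.18 and 3.11 in WT. WT replicate 1 thus lay below all *mgt* libraries for one copy and above all of them for the other.

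Complexins bind the assembled SNARE complex and hold it ready for calcium. The more abundant *cplx2* gene (ENSDARG00000111920, chromosome 14, 51829317 to 51855047, which another annotation names CPLX1) was the highest of the 38 in *mgt*, with an RPKM of 210.2, 212 and 228, against 162, 54.8 and 70.1 in the WT libraries 1, 2 and 3. Its log2 fold change was 1.34 (SE 0.38, limma adjusted p = 0.028). The other *cplx2* gene (ENSDARG00000061918, chromosome 14, 25534604 to 25577094) had 18.5, 19.1 and 19.3 in *mgt*, against 14.6, 5.39 and 7.61 in WT (1.12, SE 0.32, limma adjusted p = 0.031). Both had the same order of libraries, with *mgt* above WT replicate 1 and WT replicate 1 above the other 2 WT libraries. Complexin 4, known from the ribbon synapses of the mammalian retina, is encoded by *cplx4a*. This gene differed from both, with an RPKM of 30, 31.1 and 31.3 in *mgt*, against 36, 6.37 and 4.38 in WT, and WT replicate 1 was the highest library. Its log2 difference between WT replicate 1 and the other WT libraries, 2.66, was the largest of the 38 genes.

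The disassembly enzymes showed a similar contrast. The SNAP adaptor gene *napba* had an RPKM of 36.4, 37.7 and 36.9 in *mgt*, against 24.9, 5.54 and 7.24 in WT (log2 fold change 1.83, SE 0.51, limma adjusted p = 0.027). For the ATPase gene *nsfa* it was 48.4, 53.5 and 52.3 in *mgt*, against 61.4, 16.4 and 24.9 in WT (0.80, SE 0.44, limma adjusted p = 0.16). All 7 genes of this group were called higher without WT replicate 1.

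Of the 6 synaptotagmin genes, *syt1a* and *syt11a* were called higher and *syt1b*, *syt4*, *syt5a* and *syt5b* were not called. Synaptotagmin 1, the calcium sensor of fast release, is encoded by *syt1a*, whose RPKM was 76.9, 76.3 and 79.7 in *mgt*, against 56.2, 11.8 and 15.5 in the WT libraries 1, 2 and 3 (log2 fold change 1.81, SE 0.54, limma adjusted p = 0.033). Its copy *syt1b* was the only one of the 38 genes called neither with all libraries nor without WT replicate 1. It had an RPKM of 1.23, 0.74 and 1.05 in *mgt*, against 1.38, 0.94 and 1.45 in WT (-0.22, SE 0.19, limma adjusted p = 0.33), and its groups overlapped.

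The gene *syt11a*, whose family member in mammals does not bind calcium, had an RPKM of 30.8, 31.3 and 33.1 in *mgt*, against 21.2, 5.67 and 8.16 in WT (log2 fold change 1.62, SE 0.43, limma adjusted p = 0.024). For *syt4*, which in mammals is found on dense-core and other vesicles, the RPKM was 20.9, 21.9 and 22 in *mgt*, against 18.2, 5.55 and 9.20 in WT (1.1, SE 0.38, limma adjusted p = 0.051). Neither gene's groups overlapped. The *syt5* copies differed in the place of WT replicate 1. The RPKM of *syt5b* was 74.4, 76.7 and 80 in *mgt*, against 75.1, 16.1 and 18.6 in WT, with WT replicate 1 among the *mgt* libraries. That of *syt5a* was 20.8, 20.7 and 22 in *mgt*, against 39.8, 11.2 and 8.07 in WT, with WT replicate 1 far above them. For *syt5a* the difference between the *mgt* mean and WT replicate 1 was -0.90 on the log2 scale, the lowest of the 38 genes, and its log2 fold change of 0.44 (SE 0.54, limma adjusted p = 0.51) was 1.11 without WT replicate 1 and -0.003 without WT replicate 3.

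Of the 6 genes for proteins of the vesicle membrane, *sv2a*, *syn2b* and *sypa* were called higher and *syn2a*, *sypb* and *rab3aa* were not called, and all 6 were called higher without WT replicate 1. The vesicle glycoprotein gene *sv2a* (ENSDARG00000059945, chromosome 16, 46111849 to 46202705) had an RPKM of 49, 47.2 and 48.8 in *mgt*, against 31.3, 6.20 and 6.22 in the WT libraries 1, 2 and 3 (log2 fold change 2.12, SE 0.59, limma adjusted p = 0.028). The ratio of the *mgt* mean to that of WT replicates 2 and 3 was 7.79-fold, against 1.55-fold to WT replicate 1.

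Synapsins tether vesicles in the reserve pool. For *syn2b* the RPKM was 17.1, 16.4 and 18.3 in *mgt*, against 9.97, 2.71 and 3.13 in WT (log2 fold change 1.84, SE 0.43, limma adjusted p = 0.017). For *syn2a* it was 42.6, 45.7 and 47.8 in *mgt*, against 45.5, 13.7 and 18.3 in WT (0.99, SE 0.41, limma adjusted p = 0.083). The groups were apart for *syn2b*, whereas WT replicate 1 fell among the *mgt* libraries for *syn2a*. Synaptophysin, an abundant vesicle protein that binds synaptobrevin, is encoded by *sypa* and *sypb*. For *sypa* the RPKM was 70.9, 68.9 and 71.2 in *mgt*, against 51.3, 11.5 and 17.9 in WT. For *sypb* it was 44.6, 45 and 45.4 in *mgt*, against 49, 12.4 and 15 in WT. As for synapsin, WT replicate 1 was below *mgt* in one copy and not in the other. The small GTPase gene *rab3aa* had 12.9, 12.8 and 13.2 in *mgt*, against 12.4, 5.45 and 5.23 in WT (0.82, SE 0.31, limma adjusted p = 0.067), with no overlap between the groups.

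Among the 4 active zone genes, the scaffold genes *pcloa* and *pclob*, which encode piccolo, were called higher, and *rims2a* and *unc13a*, whose products dock and prime vesicles, were not called. The RPKM of *pcloa* was 13.3, 13.6 and 14.4 in *mgt*, against 8.84, 1.69 and 1.91 in the WT libraries 1, 2 and 3 (log2 fold change 1.96, SE 0.54, limma adjusted p = 0.026). For *pclob* it was 6.73, 6.36 and 6.67 in *mgt*, against 4.69, 0.78 and 0.90 in WT (1.75, SE 0.52, limma adjusted p = 0.033). The *mgt* mean was 7.66-fold and 7.84-fold that of WT replicates 2 and 3 for these copies, and 1.56-fold and 1.40-fold that of WT replicate 1. For *rims2a* the RPKM was 18.4, 19.4 and 18.5 in *mgt*, against 17.8, 5.12 and 7.77 in WT (log2 fold change 1.02, SE 0.40, limma adjusted p = 0.072). For *unc13a* it was 9.33, 9.87 and 10 in *mgt*, against 9.87, 2.06 and 3.22 in WT (1.15, SE 0.48, limma adjusted p = 0.087). In both of these, WT replicate 1 was level with or just below the *mgt* libraries.

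Of the 7 genes for vesicular transmitter transporters, *slc17a6a*, *slc17a6b*, *slc32a1*, *slc18a2* and *slc18a3a* were called higher and *slc17a7a* and *slc17a7b* were not called, and all 7 were called higher without WT replicate 1. The transporter of GABA and glycine, *slc32a1*, had an RPKM of 42.3, 42.8 and 43 in *mgt*, against 32.1, 6.89 and 6.90 in the WT libraries 1, 2 and 3 (log2 fold change 1.83, SE 0.56, limma adjusted p = 0.036). Among the glutamate transporters, *slc17a6a* had 21, 22 and 21.4 in *mgt*, against 16.3, 3.70 and 4.99 in WT (1.59, SE 0.49, limma adjusted p = 0.036). Its copy *slc17a6b* had 15.6, 16 and 15 in *mgt*, against 10.4, 2.70 and 3.74 in WT (1.60, SE 0.43, limma adjusted p = 0.024). The other pair of glutamate transporters stood highest in WT replicate 1. Of these, *slc17a7a* had 15.6, 14.3 and 15.6 in *mgt*, against 17.1, 3.80 and 3.79 in WT (1.18, SE 0.54, limma adjusted p = 0.11), and *slc17a7b* had 12.7, 12.8 and 13.2 in *mgt*, against 15.5, 2.68 and 2.25 in WT (1.37, SE 0.64, limma adjusted p = 0.12).

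The transporter of dopamine, serotonin and other monoamines, *slc18a2*, had a low RPKM of 2.31, 2.29 and 2.32 in *mgt*, against 1.49, 0.44 and 0.70 in WT (log2 fold change 1.1, SE 0.27, limma adjusted p = 0.019). For *slc18a3a*, which loads acetylcholine in motor and other cholinergic neurons, the RPKM was 14.1, 15.5 and 16.1 in *mgt*, against 13.3, 6.24 and 7.80 in WT (0.78, SE 0.26, limma adjusted p = 0.046). This was the smallest log2 fold change among the 19 genes called higher. Of the RPKM summed over the 7 transporters, *slc18a3a* made up 11.4%, 12.3% and 12.7% in *mgt*, against 12.5% in WT replicate 1, 23.6% in WT replicate 2 and 25.9% in WT replicate 3. The share of *slc32a1* was 34.3%, 34.1% and 34% in *mgt*, against 30.2%, 26.1% and 22.9% in WT, with no overlap. The share of *slc17a6a* and *slc17a6b* together was 29.6%, 30.2% and 28.7% in *mgt*, against 25.1%, 24.2% and 28.9% in WT, with overlap. That of *slc17a7a* and *slc17a7b* was 22.9%, 21.5% and 22.7% in *mgt*, against 30.8%, 24.5% and 20% in WT, with overlap too. The shares are of RPKM within one library and so do not depend on the scaling between libraries.

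**Figure D3:**
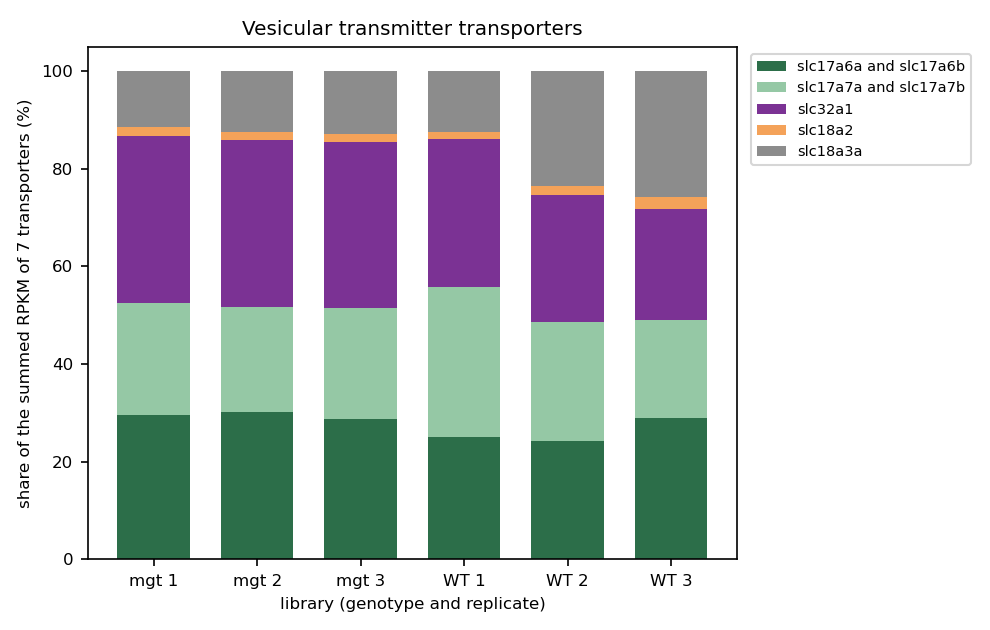
Share of the summed RPKM of 7 vesicular transporters (y axis, percent) in each library (x axis), stacked by transporter. The share of *slc18a3a*, the acetylcholine transporter, lies between 11.4% and 12.7% in *mgt* and WT replicate 1, against 23.6% and 25.9% in WT replicates 2 and 3.

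The last group takes membrane back from the cell surface. Dynamin 1 is the GTPase that pinches vesicles off the plasma membrane, and both of its copies were called higher. The RPKM of *dnm1a* (ENSDARG00000010042, chromosome 5, 1278092 to 1421927) was 13.5, 13.4 and 13.6 in *mgt*, against 7, 1.30 and 1.86 in the WT libraries 1, 2 and 3, and its log2 fold change of 2.14 (SE 0.50, limma adjusted p = 0.017) was the second highest of the 38 genes after *vamp2*. For *dnm1b* it was 21.1, 22.6 and 24.6 in *mgt*, against 15.4, 3.50 and 4.86 in WT (1.73, SE 0.48, limma adjusted p = 0.028). Amphiphysin, which binds dynamin and curved membrane, is encoded by *amph*, a gene that was not called. Its RPKM was 35.3, 36.6 and 36.5 in *mgt*, against 36.9, 7.68 and 10.9 in WT (1.27, SE 0.53, limma adjusted p = 0.083). WT replicate 1 lay below *mgt* for both dynamin copies and just above it for *amph*.

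To place WT replicate 1 for each gene, its log2 value was set on a scale on which the mean of WT replicates 2 and 3 is 0 and the *mgt* mean is 1. Among the 35 of the 38 genes with a *mgt* mean at least 1 log2 unit above WT replicates 2 and 3, the place was 0.64 to 1.80, with a median of 0.82. WT replicate 1 was past the midpoint toward *mgt* in 35 of these 35, and at or past the *mgt* mean in 11 (31.4%). Among the 4963 genes of the whole table that met the same condition, the median was 0.69, 74.4% were past the midpoint and 12.6% were at or past the *mgt* mean. Of the 35 genes, *vamp2* had the lowest place and *syt5a* the highest. These values describe the same 6 libraries and were not tested.

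Ratios between a pair of related genes within one library do not depend on a scaling factor of that library. Of the 11 pairs compared, 10 were the a and b copies of a gene, and *vamp1* with *vamp2* were distinct genes of one family. In 5 pairs the groups overlapped, namely *snap25a* over *snap25b*, *stxbp1a* over *stxbp1b*, *slc17a6a* over *slc17a6b*, *slc17a7a* over *slc17a7b* and *pcloa* over *pclob*. The ratio of *syn2a* to *syn2b* was 2.48, 2.79 and 2.61 in *mgt*, against 4.56, 5.06 and 5.85 in the WT libraries 1, 2 and 3. That of *vamp1* to *vamp2* was 0.403, 0.372 and 0.387 in *mgt*, against 0.833, 1.17 and 1.02 in WT. Here WT replicate 1 stayed with the other WT libraries. Likewise *sypa* to *sypb* was 1.59, 1.53 and 1.57 in *mgt*, against 1.05, 0.923 and 1.20 in WT. For *dnm1a* to *dnm1b* it was 0.642, 0.592 and 0.550 in *mgt*, against 0.455, 0.371 and 0.383 in WT. In this pair WT replicate 1 lay between the other WT libraries and *mgt*. The ratio of *syt5a* to *syt5b* was 0.279, 0.270 and 0.275 in *mgt*, against 0.530, 0.695 and 0.434 in WT, and that of *syt1a* to *syt1b*, with a low denominator, was 62.5, 103 and 75.9 in *mgt*, against 40.7, 12.5 and 10.7 in WT. For each of these 6 pairs the two-sided exact permutation test over libraries gave p = 0.1, the smallest that 3 against 3 allows, so no pair can pass 0.05. How reads that fit both copies of a gene were counted is not given in the sources used here, and the split between near-identical copies is uncertain to that extent.

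**Figure D4:**
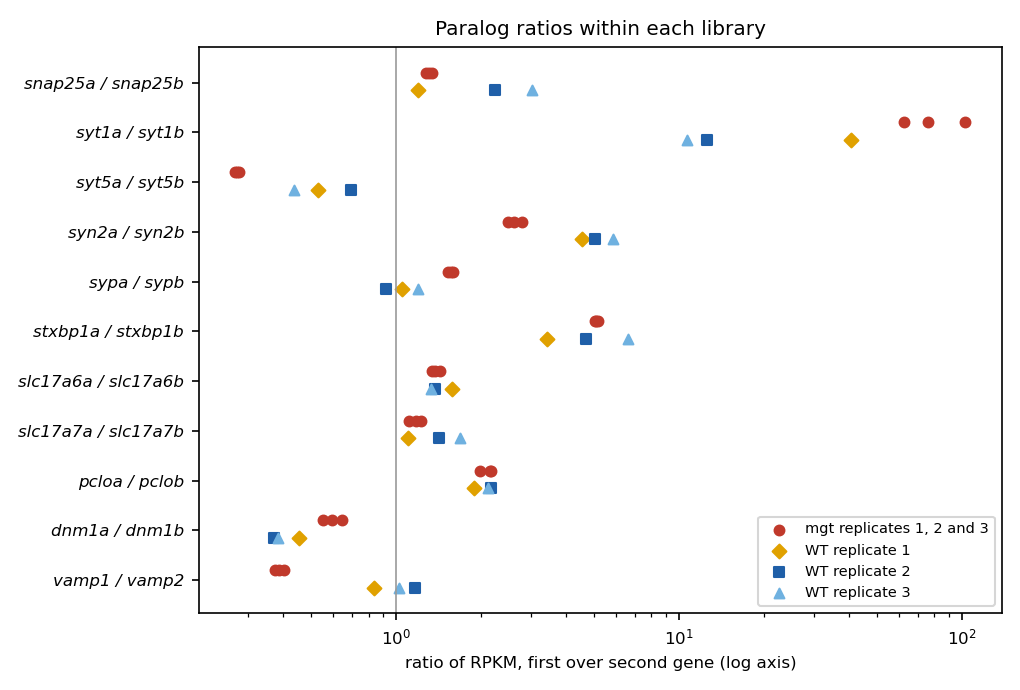
Ratio of RPKM between the genes of a pair (x axis, log scale) for 11 pairs (y axis), with *mgt* replicates as circles above the WT replicates, each WT replicate with a symbol of its own. The *syn2a* to *syn2b* ratio is 2.48 to 2.79 in *mgt* and 4.56 to 5.85 in WT, and the *snap25a* to *snap25b* ratio of WT replicate 1, 1.20, lies next to the *mgt* values of 1.28 to 1.34.

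Other genes of the same pathway were read from a list of 171 further symbols, of which 148 matched 150 genes and 143 were tested. In *mgt*, 58 were called higher and 5 lower, beside 31.8% and 15.6% of all genes tested. The median log2 fold change was 0.80, beside 0.29 over all genes tested. Without WT replicate 1 the counts were 107 higher and 6 lower, beside 52.2% and 18.1% of all genes. These shares also stand beside the counts by role. The counts by role were 3 higher of 16 SNARE genes, 3 higher and 1 lower of 18 regulators, 12 higher and 2 lower of 24 calcium sensors, 8 higher of 27 vesicle membrane genes, 15 higher of 27 active zone genes, 1 higher and 1 lower of 4 transporters, and 16 higher and 1 lower of 27 endocytic genes. Without WT replicate 1 they were, in the same order, 7 higher, 12 higher and 1 lower, 22 higher and 2 lower, 16 higher and 1 lower, 26 higher, 2 higher and 1 lower, and 22 higher and 1 lower. Outside the SNARE genes, the called gene with the highest log2 fold change of each role was *stxbp5a* (1.58), *syt2a* (1.97), *syn1* (1.83), *erc2* (1.99), *slc18a3b* (1.02) and *snap91a* (2.10). For *snap91a*, a clathrin adaptor of synaptic vesicle recycling, the RPKM was 26.6, 25.4 and 26.9 in *mgt*, against 14.9, 3.04 and 4.02 in the WT libraries 1, 2 and 3 (SE 0.52, limma adjusted p = 0.020), and for the active zone scaffold gene *erc2* it was 9.27, 9.15 and 9.50 in *mgt*, against 4.58, 1.09 and 1.35 in WT (SE 0.42, limma adjusted p = 0.012). Both repeat the order seen in *vamp2* and *dnm1a*, with WT replicate 1 between the groups. The called gene with the lowest log2 fold change of each role was *snap29* (0.72), *napab* (-0.38), *syt15* (-0.95), *rab27a* (0.56), *ppfia1* (0.66), *slc18b1* (-0.81) and *sh3gl3b* (-0.79). The endophilin gene *sh3gl3b* had 3.14, 3.51 and 3.35 in *mgt*, against 5.47, 7.36 and 5.70 in WT, with WT replicate 1 among the WT libraries.

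Markers of cell types that larvae contain were read in the same way. Of 22 pan-neuronal markers tested, 9 were called higher in *mgt*, 1 lower (*nefla*, -0.57) and 12 were not called, beside 31.8% called higher and 15.6% called lower over all genes tested. Without WT replicate 1, 19 were called higher and 1 lower, beside 52.2% and 18.1% of all genes. Their summed RPKM was 1336, 1304 and 1393 in *mgt*, against 1331, 567 and 651 in the WT libraries 1, 2 and 3. The log2 fold changes of the 22 markers ran from -0.57 to 2.11, with a median of 1.06. Besides *nefla*, those of *neflb*, *inaa* and *nefmb* were negative (-0.23, -0.15 and -0.11). Near the upper end was the RNA-binding protein gene *elavl3*, a general marker of zebrafish neurons. Its RPKM was 90.9, 88.7 and 92.8 in *mgt*, against 56.7, 13.1 and 16.9 in WT (log2 fold change 1.94, SE 0.51, limma adjusted p = 0.023). Divided by the pan-neuronal sum of its library, the sum of the 38 genes was 1.13, 1.18 and 1.14 in *mgt*, against 0.993, 0.653 and 0.704 in WT. The sum of the 38 genes thus differed by more than the pan-neuronal sum did in both the *mgt* libraries and WT replicate 1. This ratio depends on which markers are summed, since abundant ones weigh most. Among these were *stmn1b* (mean RPKM 250 in *mgt*, log2 fold change 0.33) and *tubb5* (123 and 0.38).

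The summed RPKM of 14 glial markers was 1087 to 1171 in *mgt*, against 858, 619 and 674 in the WT libraries 1, 2 and 3, with 8 called higher and *mbpa*, of myelin, called lower (-1.07), and the same counts without WT replicate 1. For 16 photoreceptor markers it was 2518 to 2628 in *mgt*, against 6012, 1492 and 1127 in WT, and *crx* alone was called higher (2.20), with 13 below WT replicate 1 in every *mgt* library. Without WT replicate 1, 14 of these 16 were called higher and 1 lower. For 9 muscle markers it was 19306 to 20396 in *mgt*, against 18543, 27565 and 31350 in WT, with 2 called lower with all libraries and 7 without WT replicate 1. For 5 liver markers it was 575 to 624 in *mgt*, against 1252, 1939 and 1852 in WT, with 3 called lower and 1 higher both with and without that library. These counts stand beside 31.8% called higher and 15.6% called lower over all genes tested, and 52.2% and 18.1% without WT replicate 1. Every *mgt* library was below WT replicate 1 in 40.0% of all genes tested. None of these markers was at 0 in every library. The part of cell type content in the values of the 38 genes was not tested.

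**Figure D5:**
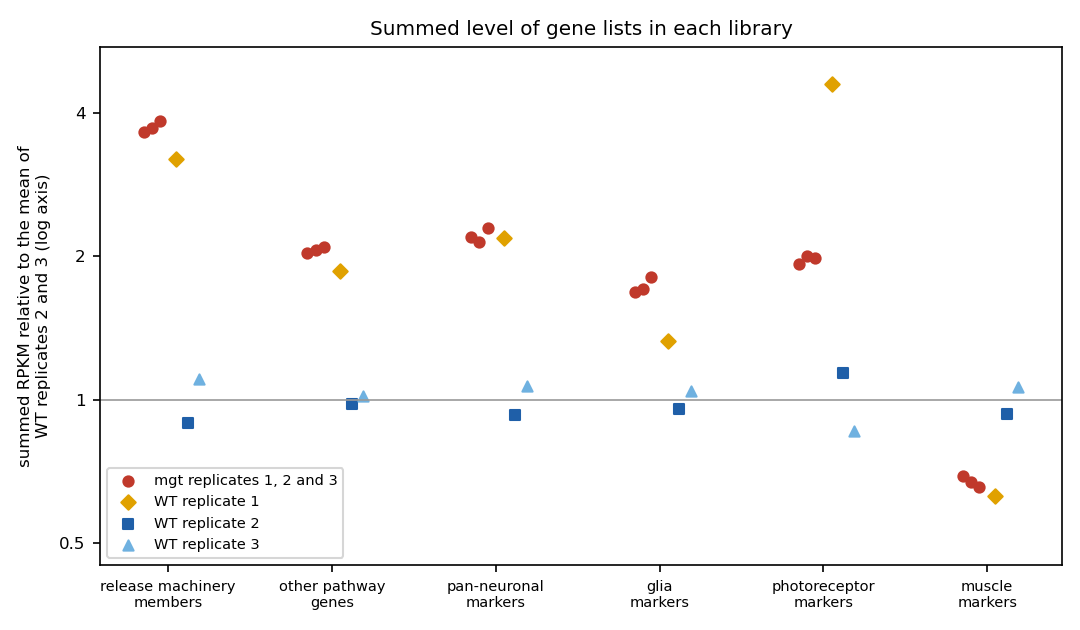
Summed RPKM of gene lists (x axis) in each library, relative to the mean of WT replicates 2 and 3 (y axis, log scale with 1 marking that mean), with *mgt* replicates as circles and each WT replicate with a symbol of its own. The release machinery, the other pathway genes and the pan-neuronal markers place WT replicate 1 beside *mgt*, the photoreceptor markers place WT replicate 1 above it, and the muscle markers place both below the other WT libraries.

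Across the 38 genes, Spearman's rho between the span of the gene in the genome and the log2 fold change was 0.40, beside 0.32 across all genes tested. With the mean RPKM it was 0.13, beside -0.08 across all genes tested. All points share the same 6 libraries, and the values are given as a description. With a lowess trend on gene span subtracted in each library, the median log2 fold change was 0.99 over the 38 genes and -0.04 over all genes tested, and 18 of the 38 were called higher, beside 18.6% of all genes tested. The scaling of the libraries shifted the median of all genes. The median over all genes tested was 0.29 as deposited, 0.49 with every library rescaled to the same sum, 0.02 with median-of-ratios factors and -0.00 with quantile normalization, and the share of calls that were higher was 67.0%, 82.2%, 48.7% and 46.7% in that order and 42.1% with the span trend removed. Relative to the median of all genes, the median over the 38 genes was 1.06 as deposited, 1.09, 1.04 and 1.24 under these scalings, and 1.03 with the span trend removed. In each of these fits 36 of the 38 log2 fold changes were positive.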

How the data were processed

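Gene-level RPKM was analysed for 6 libraries of whole larvae. Per the labels and the paper's methods, the authors depleted ribosomal RNA with either of a pair of kits (the kit of each pool is not given), used cutadapt 5.2 for trimming, STAR for alignment (GRCz11) and HTSeq for gene counts, and deposited RPKM values to 2 decimals. The gene length behind them is not given in the sources used here. The authors' deposited means, SD and ratio columns hold their own comparison and were not used for any result. Depth was read from the steps of single reads in genes spanning at most 160 bases, where 99.7% to 100.0% of values were whole within 0.1 read.

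Values were log2(RPKM + 0.5), and fold changes on this scale understate those of low genes. Genes whose mean RPKM reached 0.5 were fitted by genotype with limma 3.58.1 in R 4.3.3 (lmFit, eBayes with trend), two-sided, with Benjamini-Hochberg adjustment over 20435 genes and calls at 0.05 and 1.25-fold. The code was tested on simulated data, whose spread was taken from the libraries without WT replicate 1. That test does not cover the wider WT spread of the fit with all libraries. Genes were matched by symbol, every listed gene was to be named, and for the other pathway genes the highest and lowest called gene of each role. One such gene is not reported here. *elavl3* was named after its values were seen, as were *nefla*, *mbpa*, *crx*, *myo7aa*, *pvalb9*, *otofb* and *slc17a8*. The same holds for *neflb*, *nefmb*, *inaa*, *stmn1b*, *tubb5*, *gh1*, *chga*, *ins*, *gcga*, *gcgb*, *pyyb*, *sst2*, *otofa* and *ckma*. The genes and lists were chosen with earlier results of these data known. The alternatives, 19 in all, changed the pseudocount, filter, scaling, span trend, moderation, threshold, block and libraries. Figures were drawn with matplotlib 3.10.9. No sequence is printed.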

Additional observations from a re-analysis of the deposited data

How the results depend on the processing

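The median log2 fold change of the 38 release machinery genes lay between 0.99 and 2.02 under the 19 alternatives, and *stx1a* was called lower in each. The count over all genes, 9688 with all libraries, ranged over 4042 to 14352, with 4228, 4042 and 4063 without *mgt* replicates 1, 2 and 3 and 14352, 5864 and 5790 without WT replicates 1, 2 and 3 when 1 library was left out. That of the 38 genes called higher ranged over 0 to 36, and *syt5a* (0.44 with all libraries) turned to -0.003 without WT replicate 3 and was 1.113 without WT replicate 1. These fits had fewer samples. At an adjusted p below 0.01, 3707 genes were called, and of the 38 genes 0 were called higher and 1 lower (limma, beside 10.4% and 7.75% of all genes, with 27 higher at an unadjusted p below 0.05). With quantile normalization 2 of the 38 were called lower, the second being *syt1b* (-0.57, limma adjusted p = 0.047), and the cause was not tested. Among single genes, *slc18a3a* lost its call without a filter, with median-of-ratios factors and with quantile normalization (limma adjusted p from 0.060 to 0.065), and *cplx2* (ENSDARG00000061918) and *syt1a* lost theirs with the span trend removed (0.61 and 0.91, limma adjusted p = 0.051 and 0.059). *syt4* gained one with a pseudocount of 1, with the same sum, with quantile normalization and with the span trend removed (limma adjusted p from 0.034 to 0.049), and *syt5b*, *rab3aa* and *rims2a* gained one with the same sum (limma adjusted p from 0.043 to 0.049). The fits with a pseudocount of 0.1, a filter at a mean RPKM of 1, no trend, robust moderation or no fold threshold changed no call among the 38.

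Replicate numbers are shared between the genotypes, but same-numbered pools did not deviate together (correlations of -0.03, 0.03 and 0.03), and not every pool correlated best with its own number. With the replicate block, 8121 genes were called, 18 of the 38 were called higher and 1 lower, with *slc18a3a* losing its call (limma adjusted p = 0.061).

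The RPKM of *syt1b*, *stx1a* and *slc18a2* was at most 2.32 in every library, while the SE of the log2 fold change was largest for *cplx4a* (0.70), *stxbp1b* (0.67) and *slc17a7b* (0.64). With 3 pools per genotype, batch confounded with genotype and WT replicate 1 apart from the rest, the size of each difference depends on which WT libraries are used.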

Other observations

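Markers of 2 further cell types that use regulated secretion were examined. Of 17 endocrine markers, 10 were called higher in *mgt* and 1 lower (limma, Benjamini-Hochberg), beside 31.8% and 15.6% of all genes tested. Without WT replicate 1, 13 were called higher and 2 lower, beside 52.2% and 18.1%. The summed RPKM of the 17 markers was 443, 478 and 480.4 in *mgt*, against 405, 200 and 233 in WT. This sum had the library order of the summed release machinery genes, but not every marker did. All *mgt* values exceeded all WT values in 11 markers and fell short of them in *gh1*, *chga* and *ins*. Overlap was seen in 3, among them *sst2*. WT replicate 1 lay near the mean of the other WT libraries in *gcga*, *gcgb* and *pyyb* (log2 difference -0.16, 0.06 and 0.15). Of 7 hair cell markers, 0 were called higher and 2 lower (limma, with 0 higher and 2 lower at an unadjusted p below 0.05), beside 31.8% and 15.6% of all genes tested. All 7 were below WT replicate 1 in every *mgt* library, beside 40.0% of all genes tested. Without WT replicate 1, 1 was called higher and 2 lower, beside 52.2% and 18.1%. The one called higher there was the myosin gene *myo7aa*, with an RPKM of 3.22, 3.03 and 3.23 in *mgt*, against 3.40, 1.74 and 1.64 in the WT libraries 1, 2 and 3 (log2 fold change 0.46, limma adjusted p = 0.15, and 0.74 without WT replicate 1, limma adjusted p = 0.00017). Those of *myo6b*, *atoh1a* and *tmc2a* were -0.12, -0.29 and -0.29 and were not called in either fit. The calcium-binding protein gene *pvalb9* had an RPKM of 20.1, 19.5 and 23 in *mgt*, against 38, 61.5 and 66.1 in WT (log2 fold change -1.35, SE 0.22, limma adjusted p = 0.0052). For *otofb*, a gene for otoferlin, the calcium sensor of hair cell ribbon synapses, it was 3.51, 3.86 and 3.83 in *mgt*, against 6.99, 6.96 and 6.33 in WT (-0.78, SE 0.11, limma adjusted p = 0.0036). The other copy, *otofa*, was not on the marker list and went the other way. Its RPKM was 4.22, 4.52 and 4.40 in *mgt*, against 5.79, 2.17 and 2.71 in WT (0.37, SE 0.31, limma adjusted p = 0.34). Without WT replicate 1 the log2 fold change of *otofa* was 0.74 (limma adjusted p = 0.00043). The hair cell glutamate transporter gene *slc17a8* had 1.63, 1.57 and 1.86 in *mgt*, against 2.20, 2.06 and 2.21 in WT (-0.28, SE 0.12, limma adjusted p = 0.087). In *otofb* and *slc17a8* WT replicate 1 lay with the other WT libraries, and in *pvalb9* between them and *mgt*.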
